A study of Mus musculus with 9 samples.

Results

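The genes described here encode proteins of the mitochondrial respiratory chain. They were chosen by symbol alone: Nduf followed by a, b, c, s or v, Sdha to Sdhd, symbols that begin with Uqcr, symbols that begin with Cox and a digit from 4 to 8, Cycs, and the protein genes of the mitochondrial genome. Of the 30406 gene identifiers shared by the tables of all 9 libraries, 90 matched, 77 of them nuclear and 13 mitochondrial. The nuclear members were 38 genes of complex I, 8 Ndufaf assembly factors of complex I, 4 genes of complex II, 8 of complex III, 18 of complex IV and Cycs, which encodes cytochrome c. The mitochondrial members were 7 mt-Nd genes of complex I, mt-Cytb of complex III, 3 mt-Co genes of complex IV and 2 mt-Atp genes of ATP synthase. By its pattern of letters the rule took in Ndufa4 and its paralog Ndufa4l2, which are counted here with complex I although the protein of Ndufa4 is found with complex IV, and Cox7a2l, a factor of respiratory supercomplexes. It took in no nuclear gene of ATP synthase, and those are given as a separate list.

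The respiratory chain passes electrons from NADH and succinate through complexes I and II, ubiquinone, complex III and cytochrome c to complex IV, which reduces oxygen, and ATP synthase uses the resulting proton gradient. Its subunits come from separate genomes: the mitochondrial genome is copied and transcribed inside the organelle into long polycistronic RNAs, whereas the nuclear genes are transcribed one by one and their proteins imported. Several subunits of complex IV exist as isoforms from separate nuclear genes, among them heart and skeletal muscle forms (Cox6a2, Cox7a1, Cox8b), a lung form (Cox4i2) and testis forms (Cox6b2, Cox7b2, Cox8c), and neurons are known for a high demand for oxidative phosphorylation.

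The libraries were single-cell 3′ libraries of mouse embryonic fibroblasts (MEFs) during their conversion into induced neurons (iNs). All cultures, WT included, received the study's set of neuronal transcription factors together with M2rtTA by lentivirus, and doxycycline switched the transgenes on from day 0. The MEFs were WT, Per1-/- (allele Per1tm1Drw) or Per2-/- (allele Per2tm1Drw), each a pool of cells from 4 mid-gestation embryos without head and heart, and 1 library was made per genotype on each of days 4, 7 and 10. Days 4 and 7 were deposited with a table of 31053 genes and day 10 with one of 32285 genes from a later version of the counting program, so the day and the gene table cannot be told apart. With 1 library per genotype and day, genotypes stood in as replicates of a day and days as replicates of a genotype. The p-values for days and genotypes rest on the spread left between these 9 libraries once day and genotype are fitted. Those for classes, and for class by day, take the library as a block. They rest on how far the difference between classes varied from library to library.

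After filtering, 74785 cells were kept and clustered without the members, and clusters were named from fixed markers as fibroblast-like (34402 cells), neuron-like (6999), macrophage-like (6457), skeletal muscle-like (3030), Schwann-like (2567), astrocyte-like (905) or mesothelial-like (436), while 19989 cells stayed unnamed. The 18 fibroblast markers summed to 21566 to 43955 CPM (UMI scaled to a common total per class and library) in fibroblast-like cells and to 715 to 1480 CPM in neuron-like cells. The 16 neuron markers summed to 4425 to 9598 CPM in neuron-like cells and to 106 to 244 CPM in fibroblast-like cells, and the 15 macrophage markers to 23763 to 31428 CPM in macrophage-like cells against 20.8 to 133 CPM in fibroblast-like cells. Library totals ran from 126625215 to 353198559 UMI (unique molecular identifiers, one per captured RNA molecule), the median cell held 23021 UMI in the fibroblast-like class and 11482 in the neuron-like class, and 1954 kept cells shared a barcode with a cell of another library. Over all cells kept, Per1 was at 6.34 to 7.95 CPM in the 3 WT libraries, 9.17 to 10.3 CPM in the Per1-/- libraries and 6.45 to 7.25 CPM in the Per2-/- libraries, and Per2 at 2.58 to 3.02, 2.56 to 3.15 and 4.96 to 6.4 CPM. The deleted gene was thus not lower in its own libraries, but these are counts of 3′ ends, which no source used here places inside the deleted part, so they give no check of the labels.

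The mitochondrial genes gave a larger share of all UMI than the nuclear genes in every class, and the balance between the genomes differed between classes. A share here is the summed UMI of the members over all UMI of a class in a library, and it is described without a test. In fibroblast-like cells the mitochondrial share was 5.73% ± 0.521 (SD, n = 9 libraries) and the nuclear share 1.55% ± 0.144. In neuron-like cells the shares were 6.56% ± 0.894 and 2.24% ± 0.339, and in macrophage-like cells 6.62% ± 0.690 and 1.79% ± 0.116. Within a library the nuclear share of neuron-like cells was above that of fibroblast-like cells in 9 of 9 libraries, by a median of 1.41-fold, and the mitochondrial share in 8 of 9, by 1.20-fold. The mitochondrial UMI per nuclear UMI were therefore lower in neuron-like than in fibroblast-like cells in 9 of 9 libraries. The median was 0.831 times the fibroblast-like ratio. Cells whose own mitochondrial share was over a fixed limit had been left out, which took unequal parts of the classes. In Per2-/- on day 7 this left 636 neuron-like cells, against 763 without the limit, and 6382 fibroblast-like cells, against 6426. In WT on day 4 it left 1477 against 1482 and 3781 against 3801, in the same order. Shares without this limit are not given here.

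Skeletal muscle-like cells stood above fibroblast-like cells for both genomes in 9 of 9 libraries, with a median of 1.48-fold for the nuclear and 1.24-fold for the mitochondrial share, and their shares were 2.29% ± 0.146 and 7.27% ± 0.765. Macrophage-like cells were also higher for both genomes in 9 of 9 libraries, by 1.14-fold and 1.12-fold, so that the ratio did not move one way (4 libraries higher, 5 lower). Schwann-like cells had a nuclear share of 1.65% ± 0.106 and a mitochondrial share of 6.01% ± 0.822, and each was higher in 6 of 9 libraries only. The astrocyte-like class, which had at least 20 cells in 8 libraries, had the highest shares, 9.61% ± 1.85 mitochondrial and 2.99% ± 0.461 nuclear, and both exceeded those of fibroblast-like cells in 8 of 8 libraries. Its Schwann markers summed to 3483 to 10546 CPM, against 3327 to 4167 CPM in Schwann-like cells. Neighbouring classes in the order of mitochondrial shares (fibroblast-, Schwann-, neuron-, macrophage- and skeletal muscle-like) differed by less than 1 SD over libraries.

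**Figure D1:**
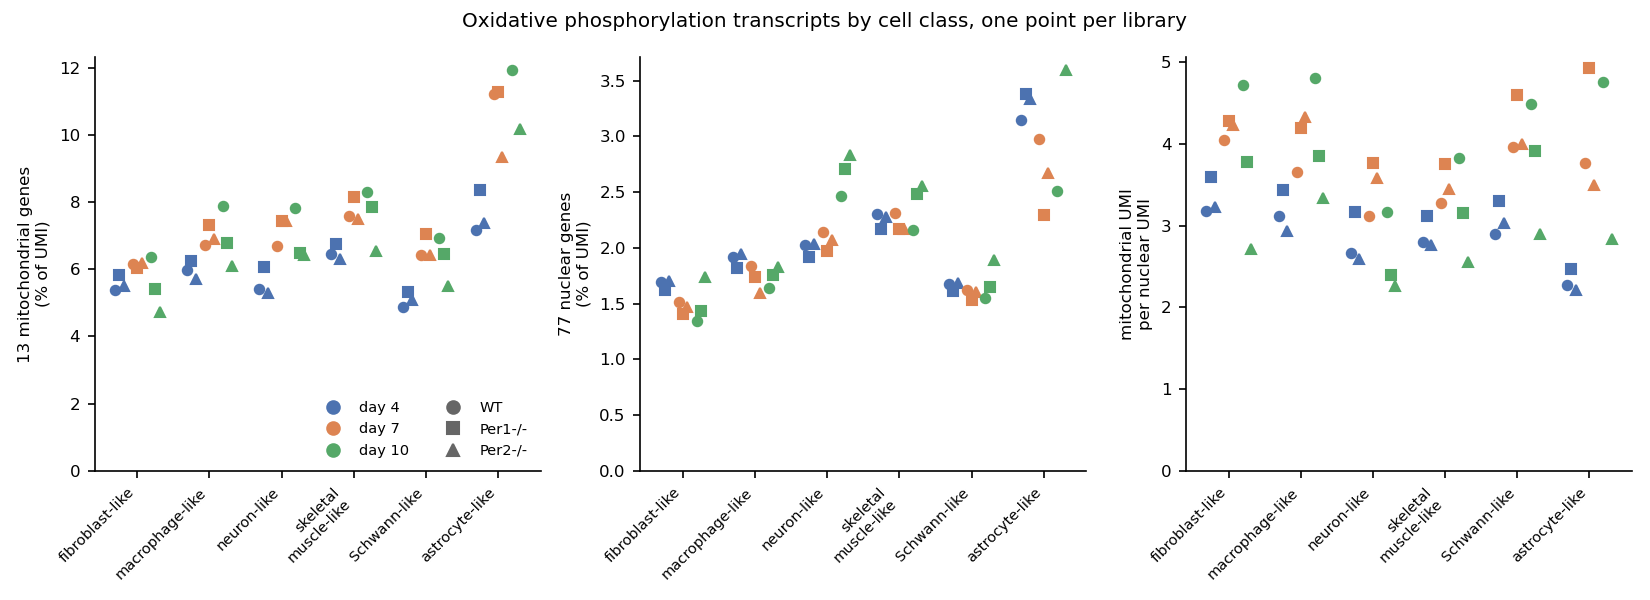
Shares of UMI from the 13 mitochondrial and the 77 nuclear members (percent of all UMI of a class in a library) and the mitochondrial UMI per nuclear UMI, by cell class on the x axis. Each point is 1 library, coloured by day and shaped by genotype. The nuclear share of neuron-like cells, 1.92% to 2.84%, lies above that of fibroblast-like cells, 1.35% to 1.74%, in every library.

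In the test of single genes, nuclear members were split between both directions in neuron-like against fibroblast-like cells. Each library gave 1 sum of UMI per class, and the sums were compared with edgeR's quasi-likelihood test with the library as a block. Counts of libraries beside its results are on the TMM scale of the fit, which can differ in direction from the CPM, scaled to total UMI, that are also given. Of 76 nuclear members tested, 28 were higher and 17 lower in neuron-like cells, where 38.1% of all 17033 genes tested were higher and 41.0% lower, and of 13 mitochondrial members 0 were higher and 5 lower. The gene left untested was Cox8c, a testis isoform with 20 UMI in all cells kept. The median log2 fold change was 0.11 for nuclear members, −0.17 for mitochondrial members and −0.03 for all genes. The split depended on day 10: on days 4 and 7 alone 17 nuclear members were higher and 32 lower, with a median of −0.12, and 11 mitochondrial members were lower. It depended on the scaling as well, since with total UMI in place of TMM factors 61 nuclear members were higher and 5 lower, 9 mitochondrial members were higher and 1 lower, and the median of all genes was 0.41. Shares of all genes called, here and below, are from the edgeR fit with TMM factors and all libraries. None is given for days 4 and 7 alone, total UMI scaling, DESeq2 or other settings, so counts under these are not set against all genes.

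Relative to all UMI, neuron-like cells had more of Cycs, of Ndufs8, an iron-sulfur subunit of complex I, and of Ndufaf3, a complex I assembly factor. These levels are not counts per cell. On day 4 the median cell held 8579 to 13470 UMI in the neuron-like and 19708 to 30551 UMI in the fibroblast-like class. Cycs was at 98.3, 103 and 97.8 CPM in fibroblast-like cells on day 4 (WT, Per1-/- and Per2-/-), at 81.1, 76.8 and 87.2 CPM on day 7 and at 80.7, 68.2 and 97.7 CPM on day 10. The neuron-like values of Cycs were 199.9, 206 and 204 CPM on day 4, 244, 210.1 and 244 CPM on day 7 and 289.98, 302 and 309 CPM on day 10. The classes did not overlap for Cycs in any library, with a log2 fold change of 1.04 ± 0.126 (SE, edgeR adjusted p = 1.018e-05, higher in 9 of 9 libraries). Ndufs8 lay between 58.2 and 80.1 CPM in fibroblast-like and between 152 and 266 CPM in neuron-like cells, a log2 fold change of 1.03 ± 0.125 (edgeR adjusted p = 9.68e-06, 9 of 9). Ndufaf3 was higher by 0.90 ± 0.0735 on the log2 scale, also in 9 of 9 libraries. On days 4 and 7 alone the log2 fold changes of Cycs, Ndufs8 and Ndufaf3 were 0.76, 0.76 and 0.74.

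By complex, 18 of the 38 genes of complex I were higher in neuron-like cells and 6 lower, 5 of 17 of complex IV were higher and 5 lower, and 1 of 8 of complex III was higher and 1 lower. Complex II had 1 of 4 genes higher and 2 lower, and the assembly factors had 2 of 8 higher and 3 lower. The 5 mitochondrial genes that were lower were mt-Co1, the catalytic core of complex IV (log2 fold change −0.63 ± 0.0560, edgeR adjusted p = 5.826e-07), mt-Co3 (−0.42), mt-Nd4 (−0.38), mt-Nd5 (−0.45) and mt-Cytb, the cytochrome b of complex III (−0.31). Each of the 5 was lower in 9 of 9 libraries on the TMM scale, and with total UMI scaling mt-Co3, mt-Nd4 and mt-Cytb were on the other side of zero. The mt-Co1 values were 6086 to 7961 CPM in fibroblast-like and 4980 to 6794 CPM in neuron-like cells, so the ranges overlapped although each library went the same way. In CPM mt-Cytb was instead higher in neuron-like cells on day 10, at 10353, 9220.1 and 9247 against 9000.1, 7974.7 and 7505.7 CPM. On day 7 it was at 9022 to 10595 CPM in neuron-like and 8665 to 9066 CPM in fibroblast-like cells. On day 4 the ranges were 7049 to 8864 and 7342 to 8635 CPM. The log2 fold changes of mt-Nd1 (0.14), mt-Nd2 (0.15), mt-Co2 (−0.18), mt-Atp6 (−0.08), mt-Atp8 (−0.01), mt-Nd3 (−0.14), mt-Nd4l (−0.17) and mt-Nd6 (−0.12) did not pass the threshold.

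In macrophage-like against fibroblast-like cells more members were higher than lower, from both genomes and, among nuclear members, in complexes I to IV. Of 76 nuclear members 55 were higher and 9 lower, against 37.9% of all 16052 genes higher and 48.0% lower, and of 13 mitochondrial members 11 were higher and 1 lower. The median log2 fold change was 0.37 for nuclear and 0.42 for mitochondrial members against −0.18 for all genes. With total UMI scaling, for which no share of all genes is given here, 40 nuclear members were higher and 20 lower, and 8 mitochondrial members were higher and 2 lower. Higher in macrophage-like cells were 28 of 38 genes of complex I, 4 of 4 of complex II, 7 of 8 of complex III and 12 of 17 of complex IV, and lower were 3, 0, 0 and 3.

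Cox5a, a nuclear subunit of complex IV with no isoform among the members, showed a large gap to fibroblast-like cells. It was at 499, 475 and 477 CPM in macrophage-like cells on day 4, at 454, 462 and 413 CPM on day 7 and at 481, 495 and 499 CPM on day 10. The fibroblast-like values of Cox5a were 206, 197 and 184 CPM, then 141, 143 and 152 CPM, then 129.7, 127 and 171 CPM. Every macrophage-like value of Cox5a was thus above every fibroblast-like value, with a log2 fold change of 1.79 ± 0.0912 (edgeR adjusted p = 3.342e-09, 9 of 9 libraries). Sdhd, the small membrane anchor of complex II, lay at 84.1 to 106 CPM against 43.9 to 58.1 CPM (log2 fold change 1.15 ± 0.0451), and Ndufb8, an accessory subunit of complex I, at 240.2 to 328 CPM against 132 to 182 CPM (1.12 ± 0.0627). Among mitochondrial genes mt-Nd1, a membrane subunit of complex I, was at 3592 to 5460 CPM in macrophage-like and 2213 to 3194 CPM in fibroblast-like cells, a log2 fold change of 0.98 ± 0.0582 (edgeR adjusted p = 1.32e-08, 9 of 9). The other 10 mitochondrial genes that were higher lay between 0.17 (mt-Nd4l) and 0.63 (mt-Co2), mt-Cytb was at 0.0018 and did not pass the threshold, and mt-Nd6, which is encoded on the opposite strand to the other 12, was lower by 0.23 (edgeR adjusted p = 0.0412). With total UMI scaling the values of mt-Nd4l and mt-Nd4 were below 0. In CPM mt-Cytb lay lower in macrophage-like than in fibroblast-like cells on day 4, at 5633 to 6571 against 7342 to 8635. On day 7 it was at 7035 to 7855 against 8665 to 9066 CPM. The ranges of day 10, 7073 to 8794 and 7506 to 9000 CPM, overlapped.

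In skeletal muscle-like cells 50 nuclear members were higher and 11 lower than in fibroblast-like cells, against 35.3% of all 16434 genes higher and 39.7% lower, and of the mitochondrial members 4 were higher and 1 lower. The medians were 0.21 for nuclear and 0.11 for mitochondrial members and −0.04 for all genes. With total UMI scaling, for which no share of all genes is given here, 67 nuclear members were higher and 3 lower and 13 mitochondrial members were higher. The 16 skeletal muscle markers summed to 1419 to 4685 CPM in this class, the fibroblast markers to 4232 to 7979 CPM and the neuron markers to 932 to 2252 CPM, and the part of the other classes' markers in the result was not tested. Of complex I 26 of 38 genes were higher, of complex III 8 of 8 and of complex IV 11 of 17. Besides the muscle isoforms described below, Cycs was at 185 to 224 CPM (log2 fold change 0.90 ± 0.0802, 9 of 9), and Ndufa13, a complex I subunit also known as GRIM-19, was lower at 407 to 488 against 442 to 552 CPM (−0.47 ± 0.0374, 0 of 9 higher). Ndufaf6, a complex I assembly factor, varied most between libraries: it was at 39.2, 51.4 and 16.2 CPM on day 4, at 69.5, 55.04 and 42.7 CPM on day 7 and at 338, 171 and 21.2 CPM on day 10, and its fibroblast-like range was 11.4 to 13.5 CPM. All 9 libraries were above the fibroblast-like range for Ndufaf6 (log2 fold change 1.93 ± 0.412, edgeR adjusted p = 0.001066), with the highest values in WT and Per1-/- on day 10.

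Schwann-like cells had more members lower than higher among those that passed on the TMM scale. Beside their own 12 markers, at 3327 to 4167 CPM, these cells held 7333 to 13963 CPM of the 18 fibroblast markers and 822 to 2367 CPM of the 16 neuron markers, and the part of these in the comparison was not tested. There 14 nuclear members were higher and 33 lower, against 28.6% of all 15734 genes higher and 39.7% lower, and 1 mitochondrial member was higher and 7 lower. The medians, −0.10 for nuclear and −0.13 for mitochondrial members, were close to the median of all genes, −0.11. With total UMI scaling the split turned to 38 nuclear members higher and 14 lower, and no share of all genes is given here for that scaling. Complex I had 4 genes higher and 17 lower and complex IV 3 higher and 11 lower. The largest positive changes were in Cox7a1 (0.99), Cycs (0.61 ± 0.0558), Ndufaf4, an assembly factor at 46.0 to 72.8 against 27.1 to 34.7 CPM (0.55), and Uqcrq, a small subunit of complex III (0.37). Among mitochondrial genes mt-Nd2 was higher (0.21) and mt-Co1 (−0.29), mt-Co3 (−0.35), mt-Nd3 (−0.22), mt-Nd4 (−0.13), mt-Nd5 (−0.11), mt-Nd6 (−0.36) and mt-Cytb (−0.25) were lower. With total UMI scaling mt-Nd3, mt-Nd4 and mt-Nd5 were on the other side of zero, and mt-Co1, mt-Co3, mt-Nd6 and mt-Cytb stayed below 0 without passing the threshold.

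**Figure D2:**
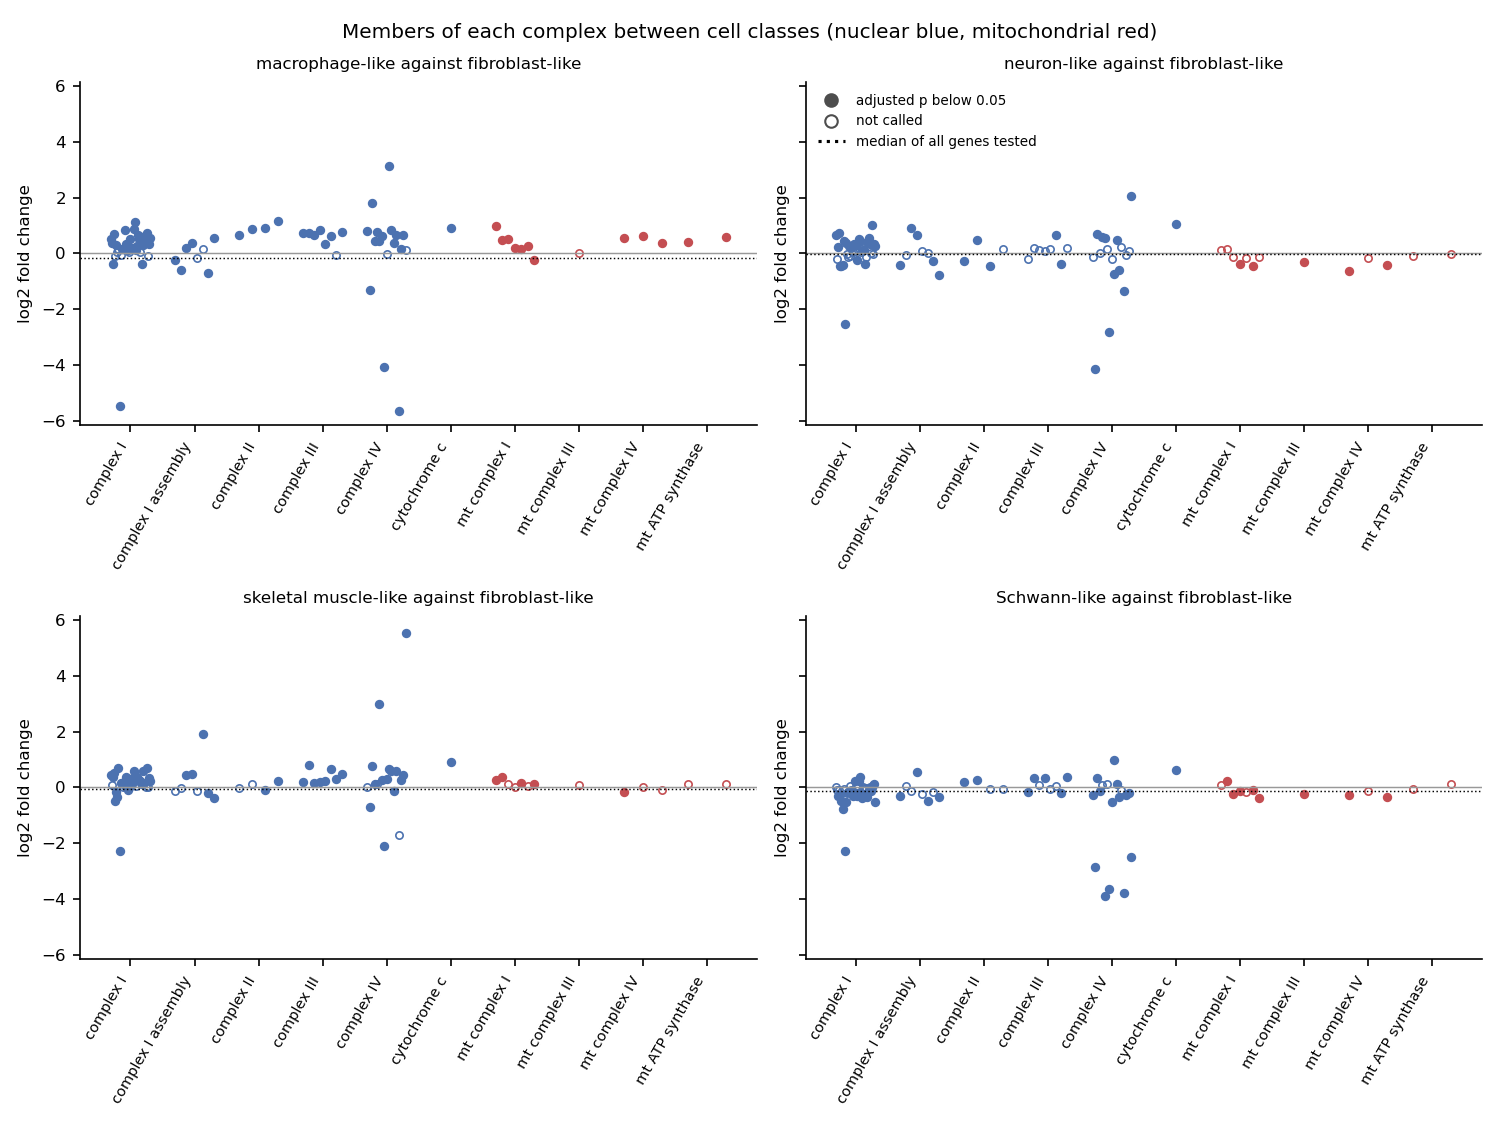
Log2 fold changes (y axis) of the members against fibroblast-like cells in 4 classes, with the members grouped by complex on the x axis, nuclear genes in blue and mitochondrial (mt) genes in red. Filled points have an edgeR adjusted p below 0.05, open points do not, and the dotted line is the median of all genes tested. In macrophage-like cells the points of complexes II and III lie above the line, and in all 4 panels the points farthest from it are isoforms of complex IV or Ndufa4l2.

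The widest differences between classes were in the isoforms of complex IV and in Ndufa4l2, which is counted here with complex I. Cox8b, the heart and skeletal muscle form of subunit 8, was at 87.5, 75.4 and 115 CPM in skeletal muscle-like cells on day 4, at 365, 168 and 170.3 CPM on day 7 and at 226, 251 and 266 CPM on day 10. In fibroblast-like cells Cox8b was at 1.58 to 7.48 CPM and in Schwann-like cells at 0 to 1.49 CPM. The log2 fold change of Cox8b in skeletal muscle-like cells was 5.53 ± 0.172 (edgeR adjusted p = 1.488e-10, 9 of 9), and the ubiquitous form Cox8a was higher by 0.45. Cox6a2, the muscle form of subunit 6a, followed with 28.0 to 130.2 CPM against 4.84 to 9.24 CPM in fibroblast-like cells (2.98 ± 0.222, 9 of 9), and its ubiquitous counterpart Cox6a1 did not pass the threshold there (0.11). Cox7a1, the muscle form of subunit 7a, was higher by 0.67 in skeletal muscle-like cells.

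In neuron-like cells, too, Cox8b lay above the fibroblast-like level on days 4 and 7, at 25.4, 23.0 and 22.9 CPM and at 18.7, 47.1 and 18.1 CPM. On day 10 it was at 7.48, 4.10 and 8.82 CPM, next to 3.74, 3.75 and 7.48 CPM in fibroblast-like cells. Over all days the log2 fold change of Cox8b was 2.07 ± 0.490 (edgeR adjusted p = 0.002105, 7 of 9 libraries higher on the TMM scale, whereas the CPM above were higher in each library), and on days 4 and 7 alone it was 2.84. The 16 skeletal muscle markers summed to 36.2 to 40.2 CPM in neuron-like cells on day 4, to 24.2 to 30.9 CPM on day 7 and to 19.1 to 32.5 CPM on day 10, against 1419 to 4685 CPM in skeletal muscle-like cells and 19.8 to 64.0 CPM in fibroblast-like cells, and their part in the result was not tested. Cox6a2 was higher in neuron-like cells (8.76 to 22.5 CPM, log2 fold change 0.55 ± 0.124, 9 of 9), as were Cox6a1 (0.60 ± 0.112), Cox7a2 (0.49) and Ndufa4 (0.43).

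Cox6b2, a testis form, was lower in 4 classes than in fibroblast-like cells. It was at 129, 95.7 and 143 CPM in fibroblast-like cells on day 4, at 109, 55.6 and 50.8 CPM on day 7 and at 58.1, 29.7 and 53.7 CPM on day 10. Against these values Cox6b2 was lower in neuron-like (log2 fold change −2.80 ± 0.303), macrophage-like (−4.07 ± 0.181), skeletal muscle-like (−2.09) and Schwann-like cells (−3.62), each in 9 of 9 libraries, whereas astrocyte-like cells held 93.2 to 353 CPM. Ndufa4l2, known as a target of the hypoxia response, was at 3.55 to 33.6 CPM in fibroblast-like cells, with its highest value in Per1-/- on day 7, and was lower in neuron-like (−2.54 ± 0.253) and skeletal muscle-like cells (−2.28), while macrophage-like cells held 0 to 0.626 CPM. Cox4i2, which replaces Cox4i1 in complex IV of some tissues, was rare everywhere, at 0.961 to 4.54 CPM in fibroblast-like and 0 to 0.440 CPM in neuron-like cells. In macrophage-like cells Cox7a1 stood out in the other direction, at 7.32 to 16.9 CPM against 0.961 to 2.46 CPM in fibroblast-like cells (3.14 ± 0.197, edgeR adjusted p = 2.102e-08, 9 of 9), and Cox7b2 had 0 UMI in 8 of 9 macrophage-like libraries. Among the ubiquitous forms Cox4i1 was higher in macrophage-like cells (0.80), lower in Schwann-like cells (−0.27), and did not pass the threshold in neuron-like (−0.13) or skeletal muscle-like cells (0.0037).

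**Figure D3:**
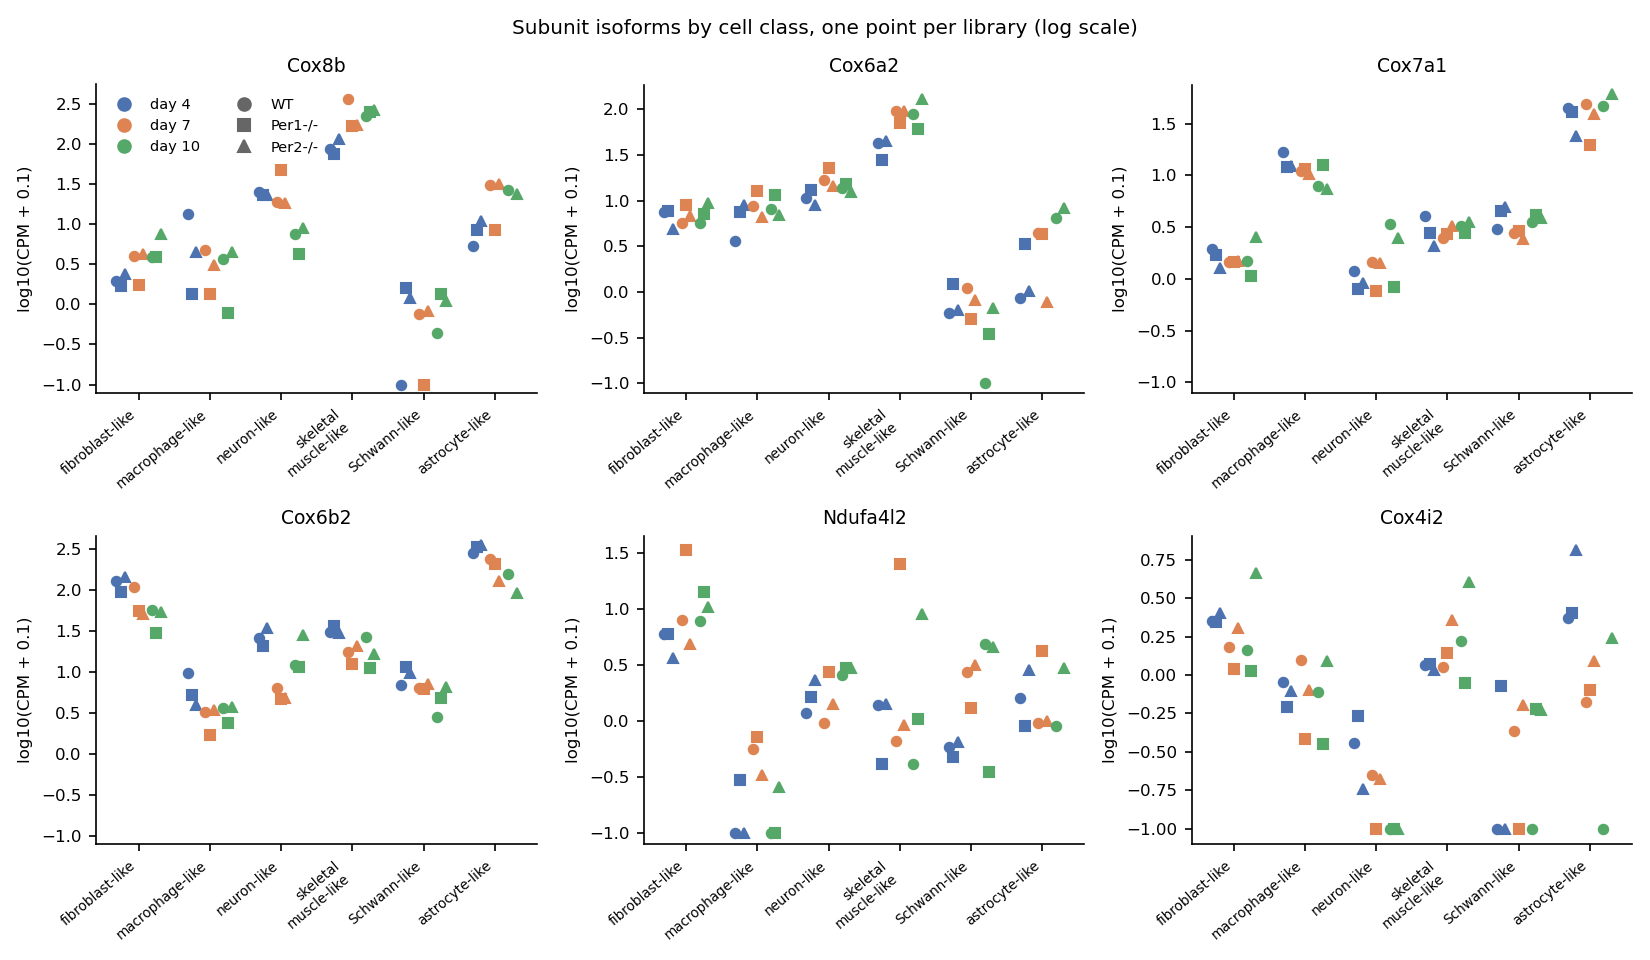
CPM of subunit isoforms by cell class on a log scale, log10(CPM + 0.1), with 1 point per library. Cox8b in skeletal muscle-like cells, 75.4 to 365 CPM, lies above all fibroblast-like libraries, 1.58 to 7.48 CPM.

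Promoters are shown for the pair of subunit 8 isoforms, one with its highest CPM in skeletal muscle-like cells and its ubiquitous counterpart, and for Cycs and Cox6a1, which were higher in neuron-like cells. Each line gives the 250 bases before the gene's start, 5′ to 3′ on the gene's strand, from RefSeq on GRCm38.p6. The windows are chr7:140900447-140900696 for Cox8b, chr19:7217617-7217866 for Cox8a, chr6:50566570-50566819 for Cycs and chr5:115348959-115349208 for Cox6a1, all on the minus strand. Capitals mark matches to GCGCATGC (the core of the NRF1 motif), CCGGAAG (an ETS motif, the family of NRF2/GABPA), CAGCTG (an E-box) and TATAAA, on either strand.
Cox8b: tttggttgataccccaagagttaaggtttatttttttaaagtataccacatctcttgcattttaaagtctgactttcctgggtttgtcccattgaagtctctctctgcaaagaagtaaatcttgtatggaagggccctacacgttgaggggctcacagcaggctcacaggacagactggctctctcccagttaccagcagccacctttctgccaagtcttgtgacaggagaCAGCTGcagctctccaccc
Cox8a: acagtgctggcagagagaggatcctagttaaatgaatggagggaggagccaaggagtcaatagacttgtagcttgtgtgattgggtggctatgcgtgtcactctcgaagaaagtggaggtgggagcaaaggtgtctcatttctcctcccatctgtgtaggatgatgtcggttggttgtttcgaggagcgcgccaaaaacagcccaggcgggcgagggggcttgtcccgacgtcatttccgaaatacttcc
Cycs: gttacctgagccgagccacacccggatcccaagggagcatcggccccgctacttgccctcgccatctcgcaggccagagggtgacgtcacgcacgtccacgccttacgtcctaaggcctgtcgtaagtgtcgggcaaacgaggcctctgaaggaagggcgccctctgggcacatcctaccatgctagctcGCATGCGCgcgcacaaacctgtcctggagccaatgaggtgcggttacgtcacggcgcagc
Cox6a1: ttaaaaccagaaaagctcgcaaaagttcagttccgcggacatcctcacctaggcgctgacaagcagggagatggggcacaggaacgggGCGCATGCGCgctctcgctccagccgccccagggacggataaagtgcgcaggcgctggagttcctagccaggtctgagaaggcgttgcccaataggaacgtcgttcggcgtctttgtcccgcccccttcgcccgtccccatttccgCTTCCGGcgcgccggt
The Cox8b window held CAGCTG and no other motif searched, Cox8a held none, Cycs held GCGCATGC on the opposite strand, and Cox6a1 held both GCGCATGC, followed by GC in a longer palindrome, and CCGGAAG on the opposite strand.

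Over the 62 nuclear members matched to a RefSeq promoter, GCGCATGC was found in 7 (11.3%; Cox6a1, Cycs, Ndufa11, Ndufa6, Ndufa8, Ndufaf4 and Sdhb), against 2.32% of 27025 promoters of the same length. The full palindrome, which is that core followed by GC, was found in 3 of them (4.84%; Cox6a1, Ndufa11 and Ndufaf4) against 0.781%. CCGGAAG was found in 10 (16.1%) against 7.05%, CAGCTG in 5 (8.06%; Cox8b, Ndufa8, Ndufb10, Ndufs5 and Ndufv2) against 12.8%, and TATAAA in 5 (8.06%) against 12.97%. These shares describe letters in a window, with no test and no measure of binding.

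Between day 4 and day 7 the mitochondrial share and the ratio of the genomes were higher on day 7 in 15 of 15 pairs of class and genotype, while the nuclear share was higher in 5 and lower in 10. Neuron-like cells had mitochondrial shares of 5.40%, 6.07% and 5.28% on day 4 and of 6.68%, 7.45% and 7.44% on day 7 (WT, Per1-/- and Per2-/-). Fibroblast-like cells went from 5.38%, 5.83% and 5.49% to 6.14%, 6.03% and 6.20%, and macrophage-like cells from 5.98%, 6.25% and 5.70% to 6.73%, 7.31% and 6.91%. Days 4 and 7 did not overlap in these 3 classes. The 15 pairs came from 6 libraries, so they are not independent of each other.

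From day 7 to day 10 the shares of the genomes moved in opposite directions in most pairs: the nuclear share was higher on day 10 in 11 of 15 pairs, whereas the mitochondrial share and the ratio were lower in 10 of 15. Of these 15 pairs, which are those of 5 classes, the 5 with a higher mitochondrial share were those of WT, at 6.35% in fibroblast-like, 7.87% in macrophage-like, 7.82% in neuron-like, 8.29% in skeletal muscle-like and 6.94% in Schwann-like cells. Outside these 5 classes, the mitochondrial share of astrocyte-like cells was higher on day 10 in both genotypes with enough cells, from 11.2% to 11.9% in WT and from 9.33% to 10.2% in Per2-/-, while that of mesothelial-like cells, with enough cells in Per1-/- alone, went from 6.29% to 5.98%. On day 10 the mitochondrial share fell in the order WT, Per1-/-, Per2-/- in 5 of 5 classes and the nuclear share rose in that order in 5 of 5. The classes share 3 libraries, so this is an order of 3 libraries, with 1 per genotype and no test. The WT library of day 10 stood apart in several values. Of its 12357 barcodes, 7013 reached the minimum of UMI for a cell. On that day it was 9216 of 9726 for Per1-/- and 12101 of 13309 for Per2-/-. Of the WT barcodes that reached this minimum, 3.01% were over the mitochondrial limit, against 0.608% for Per1-/- and 1.45% for Per2-/-. The median cell of the WT library held 12843 UMI, against 17916 for Per1-/- and 16292.5 for Per2-/-. Its unnamed cells had a median of 5820 UMI, against 18210 and 16083.5 in the same order. It gave 2328 of the 2535 cells of a mixed low-UMI cluster. The share of cells that stayed unnamed did not set WT apart in this way. It was 59.95% in WT and 49.04% in Per2-/-, against 14.9994% in Per1-/-. The part of these values in the order was not tested. In neuron-like cells the nuclear share went from 2.14%, 1.97% and 2.07% on day 7 to 2.46%, 2.70% and 2.84% on day 10, by 1.15-, 1.37- and 1.37-fold.

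**Figure D4:**
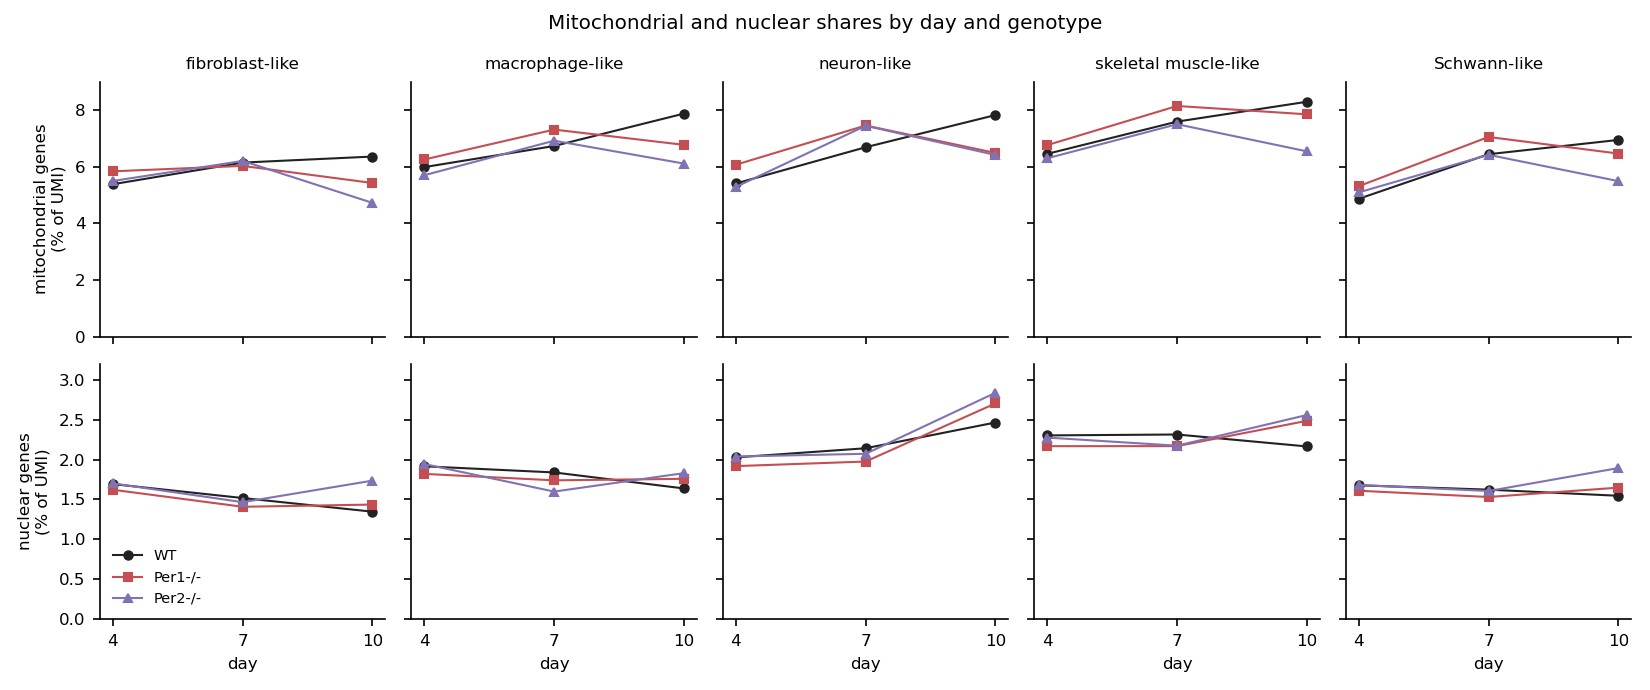
Mitochondrial (upper row) and nuclear (lower row) shares of UMI in percent by day on the x axis for 5 cell classes, with 1 line per genotype and 1 library per point. The mitochondrial share is higher on day 7 than on day 4 in 15 of 15 lines, and the nuclear share of neuron-like cells is highest on day 10, at 2.46% to 2.84%.

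Gene by gene, the rise of mitochondrial transcripts to day 7 passed the test in neuron-like cells for 6 of 13 genes. These were mt-Nd1 (log2 fold change 0.78 ± 0.147, edgeR adjusted p = 0.004214), mt-Nd3 (0.67), mt-Nd2 (0.57), mt-Nd4 (0.45), mt-Co3 (0.43) and mt-Co2 (0.36), all higher in 3 of 3 genotypes. The mt-Nd1 values were 2528, 3070 and 2717 CPM on day 4 and 4182, 5253 and 4810 CPM on day 7, without overlap, and mt-Co1 stayed at 6296, 6691 and 6392 CPM and 6261, 6619 and 6794 CPM. Cox4i2, Cox7b2 and Cox8c had too few UMI to be tested by day in this class. Of 74 nuclear members tested 4 were higher, namely Cox6a2 (0.71 ± 0.136), Ndufaf7, which methylates a complex I subunit during assembly (0.39), Ndufc2 of complex I (0.35) and Cox6a1 (0.31), and 1 was lower, where 10.2% of all genes were higher and 8.40% lower. The gene that was lower was Cox6b2, at 26.4, 20.6 and 34.5 CPM on day 4 and at 6.26, 4.64 and 4.73 CPM on day 7 (−2.42 ± 0.250, edgeR adjusted p = 0.0001253). DESeq2 gave 3 nuclear members higher, 1 lower and 8 mitochondrial members higher. The 11 calls fell to 4 without the WT library of day 4, to 5 without that of Per1-/-, to 4 without that of Per2-/-, and to 7, 3 and 4 without the WT, Per1-/- and Per2-/- libraries of day 7.

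Between day 7 and day 10 most nuclear members rose in neuron-like cells. Of 74 tested 57 were higher and 1 lower, where 12.9% of all genes were higher and 10.8% lower, and the median log2 fold change was 0.44 against 0.00 for all genes. Complex I had 31 of 38 genes higher, complex II 2 of 4, complex III 8 of 8 and complex IV 11 of 15 with 1 lower, 4 of 8 assembly factors were higher, and Cycs was higher by 0.45. The counts with total UMI scaling were 47 higher and 1 lower, and DESeq2 gave 56 higher and 1 lower. The 58 calls were 34, 29, 30 and 36 without the Per1-/- day 7, Per2-/- day 7, Per1-/- day 10 and Per2-/- day 10 libraries. Of 13 mitochondrial members 0 passed the edgeR test and 0 passed DESeq2, the median was −0.03, and at an unadjusted p under 0.05 only mt-Nd6 was lower (−0.39).

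Cox8a, the ubiquitous form of subunit 8, shows the pattern of the nuclear genes. It was at 1109, 1007 and 1099 CPM on day 4, at 1138, 994 and 1020 CPM on day 7 and at 1505, 1633 and 1657 CPM on day 10, so that days 4 and 7 overlapped and day 10 lay above both (log2 fold change 0.69 ± 0.105 from day 7, edgeR adjusted p = 0.001049). Cox5a was at 299, 284 and 267 CPM, then at 318, 302 and 346 CPM, then at 478, 475 and 480.3 CPM (0.65 ± 0.0912). Ndufb2, an accessory subunit of complex I, was at 239.7, 236 and 239 CPM, then at 291, 284 and 278 CPM, then at 364, 438 and 460 CPM (0.64 ± 0.105). These genes had their 3 day 10 values above all earlier values. The exception in the other direction was Cox8b, described above, which was lower by 1.69 ± 0.361 on the log2 scale (edgeR adjusted p = 0.006938), and Cox6b2 was higher by 1.88 ± 0.271, at 12.2, 11.6 and 28.0 CPM on day 10.

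As summed CPM in neuron-like cells, nuclear complex I went from 9241 to 9766 on day 4 over 9636 to 10378 on day 7 to 11800 to 13646 on day 10, and nuclear complex IV from 6477 to 6903 over 6642 to 7215 to 8419 to 9766. Mitochondrial complex I went from 10771 to 12621 over 15933 to 18061 to 14523 to 20059, and mitochondrial complex IV from 23470 to 26160 over 27610 to 31659 to 24670 to 30302. The nuclear sums of days 4 and 7 lay close together and below day 10, and the mitochondrial sums of day 4 lay below those of day 7, while those of days 7 and 10 overlapped. Beside these sums, the neuron markers summed to 4425 to 5039.8, 6719.6 to 9088 and 8444 to 9598 CPM in the order of the days, the fibroblast markers to 859 to 1251, 818 to 1480.4 and 715 to 1067 CPM, and the median cell held 8579 to 13470, 9915 to 12338 and 11737 to 16458 UMI. The neuron markers of days 7 and 10 overlapped, and those of day 4 lay below both. The part of these values in the rise was not tested. Of the neuron-like cells of day 10, 91.7% lay in 1 cluster, whereas 98.7% of day 4 and 93.8% of day 7 lay in another, so the day and the cluster cannot be told apart.

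**Figure D5:**
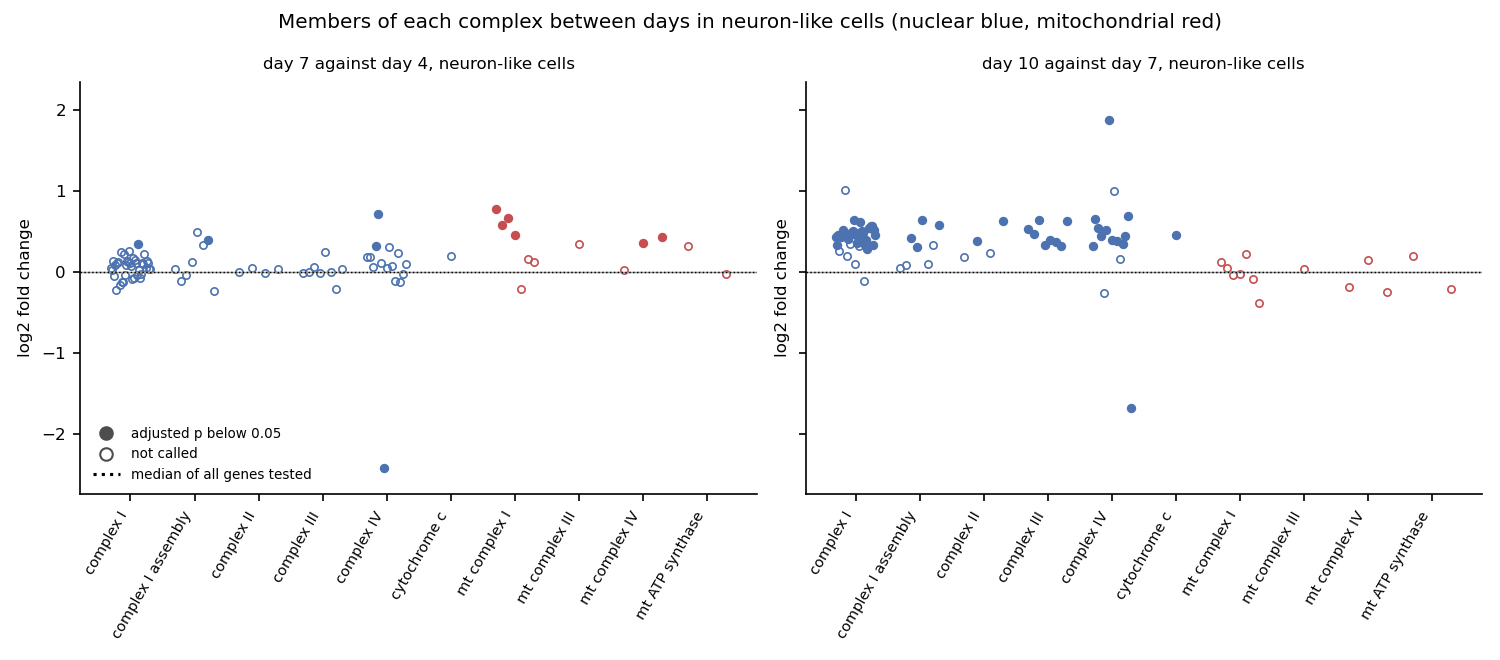
Log2 fold changes (y axis) of the members in neuron-like cells, day 7 against day 4 (left) and day 10 against day 7 (right), grouped by complex on the x axis, with nuclear genes in blue and mitochondrial (mt) genes in red. Filled points have an edgeR adjusted p below 0.05. On the left 6 mitochondrial and 5 nuclear points are filled, and on the right 58 nuclear points and 0 mitochondrial points are.

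In fibroblast-like and macrophage-like cells edgeR called 0 of the 89 and 87 members tested between days, where Cox8c was left untested in both and Cox7b2 and Ndufa4l2 in macrophage-like cells. For day 7 against day 4, 1.48% of all genes were higher and 1.59% lower in fibroblast-like cells, and at an unadjusted p under 0.05 there were 2 nuclear members higher and 16 lower and 2 mitochondrial members higher, where 1788 of all 16881 genes were higher and 1733 lower at that p, with DESeq2 calling 3 nuclear members lower and 2 mitochondrial members higher. The nuclear median was −0.18, with 68 of 76 genes below 0, and the mitochondrial median was 0.19, against 0.0075 for all genes. In macrophage-like cells 0.522% of all genes were higher and 0.210% lower, the unadjusted count was 1 nuclear member higher and 8 lower and 7 mitochondrial members higher and 1 lower against 1494 and 1302 of all 12844 genes, the medians were −0.14 and 0.25 against −0.0051 for all genes, and DESeq2 called 1 nuclear member higher, 3 lower and 2 mitochondrial members higher. For day 10 against day 7, 1.26% of all genes were higher and 0.243% lower in fibroblast-like cells and 0.942% and 0.164% in macrophage-like cells, DESeq2 called 0 members in both classes, and at an unadjusted p under 0.05 the fibroblast-like class had 4 members and the macrophage-like class 1, where 2275 and 1237 of all genes were under it. The 13 mitochondrial genes were all below 0 in fibroblast-like cells in that comparison, with a median of −0.17, where 8346 of all 16881 genes were below 0 and the median was 0.0031. Day and cluster were again entangled, since 69.4% of fibroblast-like cells of day 10 and 0.358% of those of day 7 lay in 1 cluster.

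Whether the day effect differed between classes was tested as an interaction of class and day, from day 4 to day 10. Neuron-like minus fibroblast-like cells gave 57 nuclear members higher and 2 lower of 76, against 13.9% and 16.0% of all genes, and 8 mitochondrial members higher, with medians of 0.61 and 0.39 against −0.05 for all genes. Complex I had 34 of 38 genes higher, complex III 7 of 8 and complex IV 10 with 2 lower. Cox5a had a log2 difference of 1.28 ± 0.122 (edgeR adjusted p = 3.256e-06), with neuron-like values that rose as given above. The fibroblast-like values of Cox5a lay between 127 and 206 CPM and were lower on day 10 than on day 4 in each genotype. Total UMI scaling gave 53 nuclear members higher and 2 lower, and DESeq2 61 and 1. For Cox4i2, which was among the 2 lower, neuron-like cells had 5, 12 and 1 UMI on day 4, 1, 0 and 1 on day 7 and 0 in all 3 libraries of day 10, so its fitted fold is no measure of size.

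Macrophage-like minus fibroblast-like cells gave 11 of 76 nuclear members higher and 0 lower, against 7.52% and 2.53% of all 16512 genes, and 9 of 13 mitochondrial members higher. The median of all genes was 0.13 in this comparison, next to 0.15 for nuclear and 0.40 for mitochondrial members, so the nuclear median lay next to that of all genes. With total UMI scaling the counts were 4 nuclear members higher and 2 lower and 3 mitochondrial members higher, with a nuclear median of −0.03 and a median of all genes of −0.05. Ndufc2 was at 219, 229.9 and 218 CPM in macrophage-like cells on day 4, at 232, 263 and 259 CPM on day 7 and at 271, 294 and 357 CPM on day 10, and in fibroblast-like cells at 169.5 to 225 CPM over all days, with a difference of 0.66 ± 0.118 (edgeR adjusted p = 0.003224). Counting a mixed cluster of low UMI as macrophage-like left 1 nuclear and 3 mitochondrial calls, and without the WT or the Per2-/- library of day 4 the 20 calls were 6 and 5, and without the Per1-/- or the Per2-/- library of day 10 they were 10 and 13. Of the macrophage-like cells 90.7% of day 10 lay in a cluster that held none of the other days, whereas another held 75.4% of day 4, 87.5% of day 7 and 1.04% of day 10, so day and cluster cannot be told apart here either.

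For genotype, edgeR called 0 members in Per1-/- or Per2-/- against WT in fibroblast-like, neuron-like and macrophage-like cells. Of all genes 0% were called in these comparisons, except 0.00779% (1 gene, lower) for Per1-/- in macrophage-like cells. At an unadjusted p under 0.05, Per1-/- had 1 member higher and 1 lower in fibroblast-like cells, 1 and 3 in macrophage-like cells and 0 and 1 in neuron-like cells, where all genes had 788 and 608, 488 and 657, and 330 and 178. Per2-/- had 3 higher and 0 lower in fibroblast-like, 2 and 1 in macrophage-like and 2 and 1 in neuron-like cells, where all genes had 564 and 576, 962 and 1137, and 365 and 212. DESeq2, for which no share of all genes is given here, called 1 member, in Per1-/- macrophage-like cells, and 0 elsewhere. In Per2-/- fibroblast-like cells 70 of 76 nuclear members were above 0, with a median of 0.17 against 0.00083 for all genes, and no single gene passed the threshold. The nuclear shares of that class on days 4, 7 and 10 were 1.70%, 1.47% and 1.74% in Per2-/- and 1.69%, 1.52% and 1.35% in WT, so Per2-/- was below WT on day 7 and the wide gap was that of day 10.

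The 18 nuclear genes of ATP synthase, outside the rule, were tested beside the members: 12 were higher and 0 lower in neuron-like cells from day 7 to day 10, and 17 were higher in the interaction of neuron-like cells. Of all genes 12.9% were higher and 10.8% lower at that step, and 13.9% higher and 16.0% lower in the interaction. Between classes the shares of all genes were 38.1% higher and 41.0% lower in neuron-like, 37.9% and 48.0% in macrophage-like, 35.3% and 39.7% in skeletal muscle-like and 28.6% and 39.7% in Schwann-like cells, and the counts of these and the following lists are descriptions to be set beside them. Between classes they had 5 higher and 3 lower in neuron-like, 16 and 1 in macrophage-like, 12 and 1 in skeletal muscle-like and 2 and 7 in Schwann-like cells. Genes for expression of mitochondrial DNA, such as its transcription factor Tfam and polymerase Polrmt, had 4 of 25 higher and 15 lower in neuron-like, 13 and 9 in macrophage-like, 5 and 9 in skeletal muscle-like and 4 and 9 in Schwann-like cells, and 1 higher from day 7 to day 10 in neuron-like cells. Regulators of biogenesis (such as Ppargc1a, Nrf1 and Gabpa) had 2 of 12 higher and 6 lower in neuron-like, 6 and 4 in macrophage-like, 4 and 7 in skeletal muscle-like and 3 and 4 in Schwann-like cells, and 1 higher and 2 lower from day 7 to day 10 in neuron-like cells. Assembly factors of complex IV had 4 of 23 higher and 12 lower in neuron-like, 16 and 3 in macrophage-like, 9 and 10 in skeletal muscle-like and 5 and 9 in Schwann-like cells, and 6 higher from day 7 to day 10 in neuron-like cells.

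Genes of the tricarboxylic acid cycle and pyruvate dehydrogenase had 7 of 22 higher and 9 lower in neuron-like, 13 and 5 in macrophage-like, 12 and 5 in skeletal muscle-like and 4 and 9 in Schwann-like cells, and 5 of 21 higher and 1 lower from day 7 to day 10 in neuron-like cells. Hypoxia response genes had 6 of 19 higher and 10 lower, 5 and 7, 8 and 9, and 8 and 10 in the same order of classes, and 4 of 18 higher and 2 lower at that step. The 14 genes of dissociation and stress, which can mark RNA quality and handling, had 4 higher and 7 lower, 5 and 6, 5 and 7, and 5 and 4 between classes, and 2 higher and 0 lower at that step, and in neuron-like cells their sums were 3262 to 3444, 3221 to 3463 and 3177 to 3480.3 CPM on days 4, 7 and 10. The stress sums of neuron-like cells overlapped on all days. Between classes these sums differed more. Over all 9 libraries the fibroblast-like sums were 1936 to 2324 CPM, below the neuron-like sums of 3177 to 3480.3 CPM. They also lay below the skeletal muscle-like (2949 to 3210.5 CPM) and the Schwann-like sums (2989 to 3773 CPM). The macrophage-like sums, 2161 to 2453 CPM, overlapped the fibroblast-like range. The part of these sums in the differences of the members between classes was not tested.

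The members lie on many chromosomes, and some share sequence with a neighbour, which bears on their counts. On GRCm38 (GENCODE M21) Cox8b is at chr7:140898945-140900446, Cox6a2 at chr7:128205435-128206387, Cox5a at chr9:57521274-57532426, Cycs at chr6:50562563-50566538 and Ndufa4l2 at chr10:127514967-127517154. Of the members 6 overlap another counted gene on the same strand and 23 one on the other strand, as Cox6a2 does Itgad and Ndufa4l2 does Shmt2. Among the nuclear members Ndufa13, given above as lower in skeletal muscle-like cells, overlaps Yjefn3 on the same strand. The part of this overlap in its counts was not tested. On the mitochondrial genome mt-Atp8 (chrM:7766-7969) and mt-Atp6 (chrM:7927-8607) share 43 bases, and mt-Nd4l (chrM:9877-10173) and mt-Nd4 (chrM:10167-11544) share 7. In fibroblast-like cells mt-Atp8 had 7.47 UMI per 100 UMI of mt-Atp6 in Per2-/- on day 4 and 6.59 in WT on day 7, against 1.09 to 3.01 in the other 7 libraries. Neuron-like cells of the same libraries had 7.62 and 7.08 against 1.28 to 3.25, so these libraries stood apart in both classes, and reads of mt-Atp8 and mt-Atp6 cannot be told apart within the overlap.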

How the data were processed

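UMI counts were used as deposited: 9 matrices of counts per gene and cell barcode, which the authors made with Cell Ranger (7.1 in the submitters' processing notes on build mm10, 4.0.0 in the matrix headers of days 4 and 7, 6.0.0 in those of day 10) from Chromium 3′ libraries (kit v3.1). Of 82862 barcodes that reached 3000 UMI, 81943 had no more than 20% of UMI from mitochondrial genes and were kept, and 7158 likely doublets were removed at 0.8% per 1000 barcodes. Cells were clustered with scanpy 1.11.5 and leidenalg 0.10.2 (1782 variable genes, 30 components, 15 neighbours, resolution 1), with 224 genes left out, among them the members and the listed genes. Clusters were named from fixed markers, and a cluster of 2535 low-UMI cells that held fibroblast and macrophage markers stayed unnamed. This followed from a rule set after the data were seen. A cluster with the fibroblast markers needed a mean log2 fold of 2 for another name, and this cluster had 1.44 for macrophage markers. Named macrophage-like, it would bring that class from 238 to 2566 cells in the WT library of day 10. UMI were summed per library and class (at least 20 cells) and tested with edgeR 4.0.16 in R 4.3.3 (quasi-likelihood, TMM, filterByExpr, Benjamini-Hochberg over all genes tested, threshold 0.05, two-sided): classes with the library as a block, days with genotype and genotypes with day as a covariate, and class by day as an interaction. Log2 fold changes are given ± SE. DESeq2 1.42.0 and the other settings described at the end were alternatives. CPM are counts scaled to a common total of UMI per class and library. Each 3′ count depends on the gene, so levels were not compared between genes.

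The members and lists were chosen with earlier results of these data known. Genes were named by rule: the 13 mitochondrial genes, isoforms of complex IV subunits and Ndufa4 with their paralogs, and, in each comparison, up to 4 nuclear members with the largest change past the threshold in each direction. The listed groups were nuclear ATP synthase, mitochondrial DNA expression, biogenesis regulators, complex IV assembly factors, tricarboxylic acid cycle with pyruvate dehydrogenase, hypoxia response, and dissociation and stress. The tests were checked on simulated counts. Of genes changed 1.5-fold, 92% were recovered for neuron-like against fibroblast-like cells and 43% for day 7 against day 4 in fibroblast-like cells. For Per1-/- against WT in neuron-like cells it was 29%, and for the macrophage-like interaction 8%. At 2-fold these were 98%, 95%, 94% and 58%, and 2.06% to 6.11% of calls were false. The simulated sums were drawn independently, with the same assumed spread for all genes. They held no shared effect of library, culture or cluster, so these rates need not hold for the real libraries. Counts of 0 members called thus do not exclude changes of 1.5-fold. Labels do not say that libraries came from separate cultures, so the spread may be partly technical.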

Additional observations from a re-analysis of the deposited data

Results flagged for a closer look

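One share stood apart within its group. Of 24 groups of libraries tested with Dixon's test, the nuclear share of Schwann-like cells was the 1 with an outlying value, 1.89% in the Per2-/- library of day 10 against 1.53% to 1.68% in the other 8 libraries, and chance gives about 1 in 20 groups. The other results listed here are differences between classes in their change from day 4 to day 10, each tested as an interaction with edgeR and given as a log2 difference relative to fibroblast-like cells.

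In neuron-like cells 59 nuclear and 8 mitochondrial members differed from fibroblast-like cells in that change. Among nuclear members the log2 differences were 1.28 for Cox5a, 1.23 for Ndufaf5, an assembly factor of complex I, 1.07 for Uqcrq, 0.97 for Ndufs6, 0.85 for Cox7b, 0.83 for Cox6a1, 0.80 for Cox6b1, 0.78 for Cox8a, 0.70 for Ndufa4, 0.615 for Cox4i1 and 0.58 for Cox7a2. Negative values were −3.24 for Cox8b and −6.72 for Cox4i2, and the latter is no measure of size because neuron-like cells had 0 UMI of Cox4i2 in all 3 libraries of day 10. Among mitochondrial members the differences were 0.85 for mt-Nd1, 0.78 for mt-Atp8, 0.76 for mt-Nd4l, 0.65 for mt-Nd3, 0.64 for mt-Co2, 0.64 for mt-Atp6, 0.39 for mt-Nd2 and 0.33 for mt-Cytb.

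In macrophage-like cells 11 nuclear and 9 mitochondrial members differed from fibroblast-like cells. The nuclear members among the named genes were Cox5a at 0.67, Ndufc2 at 0.66, Cox7a2l at 0.65, Ndufs8 at 0.57, Cox4i1 at 0.36 and Cox6b1 at 0.33. The mitochondrial members were mt-Atp6 at 0.55, mt-Cytb at 0.51, mt-Co2 at 0.48, mt-Nd4l at 0.47, mt-Nd4 at 0.41, mt-Nd2 at 0.40, mt-Co3 at 0.37, mt-Nd3 at 0.36 and mt-Co1 at 0.36. The median of all genes was 0.13 here, so these values stand on a shifted base.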

How the results depend on the processing

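The classes of a library were blocked by design, and without that library block 52, 65, 59 and 40 members were called in neuron-like, macrophage-like, skeletal muscle-like and Schwann-like cells. Over 147 single-gene results past the threshold, 2662 refits gave 2402 with the same direction and side of the threshold, 247 in the same direction that no longer passed, and 13 on the other side of 0, and of 472 refits of counts and shares 441 stayed within 1.5 times or 1 SD and 31 did not. The 13 reversed values were, with total UMI scaling, mt-Co3 0.016, mt-Nd4 0.053 and mt-Cytb 0.13 in neuron-like cells, mt-Nd4l −0.048 and mt-Nd4 −0.029 in macrophage-like cells, Cox7a2l 0.19 and mt-Co1 0.12 in skeletal muscle-like cells, and Cox8a 0.011, mt-Nd3 0.0064, mt-Nd4 0.10 and mt-Nd5 0.12 in Schwann-like cells, and, at clustering resolution 0.5, Cox4i2 0.23 and mt-Nd4l −0.015 in skeletal muscle-like cells. Scaling to total UMI moved the count of members called to 76 in neuron-like cells and to 9 in the macrophage-like interaction. DESeq2 called 5 members for day 7 against day 4 in fibroblast-like cells, 6 in macrophage-like cells and 1 for Per1-/- in macrophage-like cells. With no filter on low counts these were 1, 6 and 1, and Per1-/- in neuron-like cells had 1. With doublets kept, day 7 against day 4 in macrophage-like cells had 1. With mitochondrial genes left out, the macrophage-like interaction had 11 calls and day 7 against day 4 in neuron-like cells 5, since fewer members were tested. With the mixed cluster counted as macrophage-like the interaction had 4.

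Leaving out 1 library at a time gave 46 to 53 members called in neuron-like against fibroblast-like cells, 66 to 76 in macrophage-like, 61 to 70 in skeletal muscle-like and 51 to 58 in Schwann-like cells, 62 to 67 in the neuron-like and 5 to 21 in the macrophage-like interaction, 3 to 14 for day 7 against day 4 and 29 to 63 for day 10 against day 7 in neuron-like cells. It gave 0 to 2 for day 7 against day 4 in fibroblast-like cells (2 without Per2-/- day 10), 0 to 1 for day 10 against day 7 there (1 without Per2-/- day 7), 0 to 1 for day 7 against day 4 in macrophage-like cells and 0 to 2 for Per2-/- against WT there (both without Per2-/- day 4). A group left with fewer libraries took its spread from the others. The settings without shared barcodes, with the mixed cluster, with days 4 and 7 only and with total UMI scaling were chosen after seeing the data. So was the rule that left the mixed cluster unnamed in the main results. The cause of these changes was not tested where none is named. Depth limits the rare isoforms: Cox4i2, Cox7b2 and Cox8c rest on few UMI in most classes.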

Other observations

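The smaller classes entered no test and are given as values. In astrocyte-like cells, whose markers summed to 11317 to 15976 CPM and whose Schwann markers summed to 3483 to 10546 CPM, Cox7a1 was at 19.4 to 60.7 CPM and Cox8b at 5.26 to 31.6 CPM over 8 libraries, against 0.961 to 2.46 CPM and 1.58 to 7.48 CPM in fibroblast-like cells. The mesothelial-like class, named for a lining cell of body cavities, held 834 to 3235 CPM of mesothelial markers, 2841 to 9114 CPM of smooth muscle and pericyte markers (203 to 809 CPM in fibroblast-like cells) and 28469 to 47071 CPM of fibroblast markers. In this class Ndufa4l2 ran from 0.519 to 65.5 CPM over 7 libraries, and the mitochondrial UMI per nuclear UMI lay below the fibroblast-like ratio in 7 of 7 libraries, at a median of 0.912 times that ratio. The UMI of mt-Nd4l per 100 UMI of mt-Nd4, genes that share 7 bases, ranged from 12.2 to 42.7 over the fibroblast-like libraries.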
